A study of Mus musculus with 6 samples.

Results

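The genes described are 10 genes of cytosolic and endosomal RNA sensing: *Ddx58*, *Ifih1*, *Dhx58*, *Mavs*, *Tlr3*, *Eif2ak2*, *Adar*, *Zbp1*, *Tbk1* and *Tbkbp1*. They were taken by name, as the rows of the count table whose gene name field holds a member, and not by their values. Earlier results of these data were known when the names were chosen. All 10 had a row among 53060 reference genes or merged loci, and all 10 were among the 19073 genes that passed a filter on low counts. RNA was sequenced from neural progenitor cells (NPCs, labelled neural stem cells) of *Armc5* KO and WT mice, with 3 libraries of each genotype. The cells came from ganglionic eminences of e13.5 fetuses and were used as second passage neurospheres, grown with epidermal growth factor at 20 ng/ml. ARMC5 is an adaptor of a CUL3 ubiquitin ligase, and the comparison asks how its loss alters the transcriptome of NPCs. KO and WT NPCs share the medium and a mixed background, which the labels give as 129 sv X CD1 and the study's methods as a cross of CD1 and C57BL/6. The sources used here name no exposure to RNA, virus or interferon.

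Double-stranded RNA in the cytosol is bound by the helicases RIG-I (*Ddx58*) and MDA5 (*Ifih1*), which signal through MAVS on mitochondria to the kinase TBK1 and the transcription factor IRF3, while TLR3 binds double-stranded RNA in endosomes. The outcome is type I interferon, and many of the sensor genes are themselves induced by interferon. PKR (*Eif2ak2*) and ZBP1 act on such RNA by arresting translation or by triggering cell death, and ADAR edits it, which keeps the cell's own RNA from being sensed.

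*Armc5* was at 1.01, 1.63 and 0.729 CPM (counts scaled to the library size, after TMM correction) in KO NPC 1, 2 and 3 and at 31.1, 29.5 and 26.2 CPM in WT NPC 1, 2 and 3. Every library thus matched its genotype label (log2 fold change -4.68). The adjusted p of *Armc5* was 0.0864 in the quasi-likelihood test of edgeR and 1.01e-20 in its likelihood ratio test. KO NPC 3 stood apart from the rest: its median correlation of log2 CPM across genes with the other libraries was 0.910, against 0.966 to 0.974 in the other 5. It was also the shallowest, with 52995791 counts at loci that name a gene, against up to 85170379 in KO NPC 1. Differences of the 10 genes are therefore given with and without it. The summed level of 7 astrocyte markers reached 2718 CPM in KO NPC 3, whereas the other 5 libraries held 840 to 1357 CPM. *Aqp4*, *Gja1* and *Gfap*, at 1040, 699 and 276 CPM, made up most of that sum, while *Slc1a2*, the most abundant marker over all libraries, was at 271 CPM in KO NPC 3, within the 219 to 520 CPM of the others. The summed level of 7 endothelial and mural markers was 77.2 CPM in KO NPC 3 against 4.26 to 7.40 CPM elsewhere, mostly from *Pdgfrb*, which was at 58.4 CPM there. The summed level of 12 microglia and macrophage markers was 4.19 to 4.36 CPM in the KO and 4.83 to 4.93 CPM in the WT NPCs, and only *Cd68* and *P2ry12* of them passed the filter, with *Tyrobp* at 0 counts in every library. The 10 neural progenitor markers summed to 3241 to 4418 CPM in the KO and 3959 to 4519 CPM in the WT NPCs, with *Vim* the most abundant. The 8 oligodendrocyte lineage markers, led by *Olig1*, summed to 2568 to 3531 and 2529 to 3209 CPM, and the 8 neuron markers, led by *Map2*, to 811 to 1382 and 831 to 1479 CPM. In bulk RNA, a change in the number of cells of a type and a change in RNA per cell cannot be told apart.

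The RNA sensing genes spanned 3 orders of magnitude in WT NPCs, with the barely detected *Zbp1* at the low end. Levels of different genes are compared as RPKM, which divides CPM by the length of the locus in kilobases as the table gives it. *Mavs*, the mitochondrial adaptor, was at 11.2 ± 1.57 RPKM (SD, n = 3). *Adar* followed at 7.78 ± 1.08, *Tbkbp1* at 5.77 ± 1.24, *Tbk1* at 5.64 ± 0.311 and *Eif2ak2* at 5.31 ± 0.352 RPKM (SD, n = 3 each). The RNA receptors were lower, with *Tlr3* at 2.58 ± 1.20, *Ddx58* at 1.23 ± 0.182 and *Ifih1* at 0.0893 ± 0.0135 RPKM, and *Zbp1* was lowest, at 0.0133 ± 0.0164 RPKM (SD, n = 3 each). The row that holds *Dhx58* was highest, at 17.2 ± 2.67 RPKM (SD, n = 3), but it also holds *Kat2a*, a histone acetyltransferase gene, and the counts of the pair cannot be separated. In this order *Adar*, *Tbkbp1*, *Tbk1* and *Eif2ak2* each overlapped their neighbour in the range of their 3 WT libraries, while all other neighbours were apart. The order was the same with the length of the merged GENCODE exons, except that *Eif2ak2* then stood above *Tbk1*. For *Ifih1* that length is 8165 bases, against 14750 in the table, and its WT level on it was 0.161 RPKM.

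**Figure D1:**
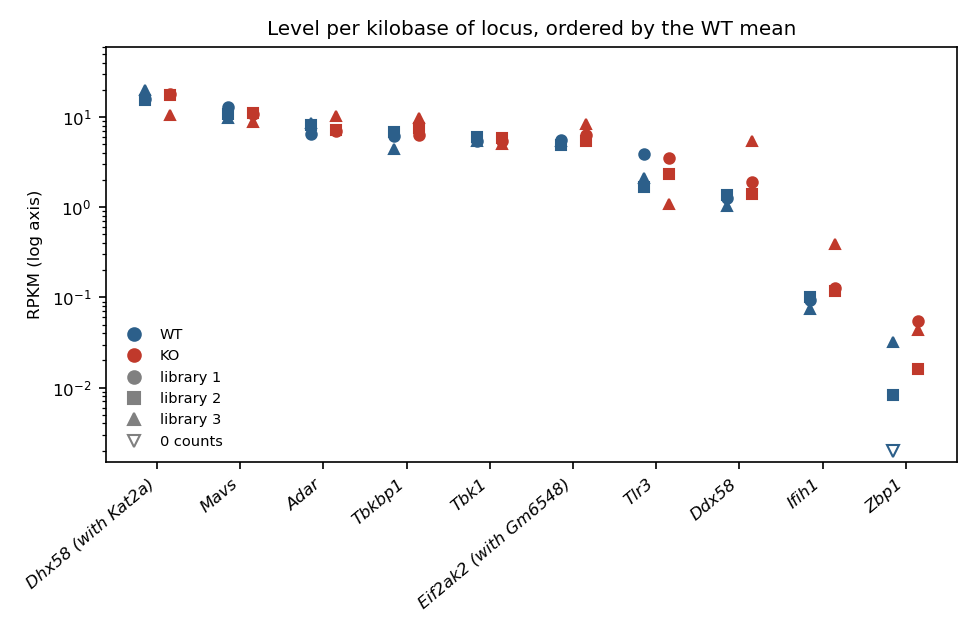
RPKM of each RNA sensing gene (log axis) in the 3 WT and 3 KO NPC libraries, ordered by the WT mean, with the marker shape giving the library number and an open triangle a library with 0 counts. The levels run from the *Dhx58* and *Kat2a* row at 17.2 RPKM to *Zbp1* at 0.0133 RPKM, and library 3 of the KO NPCs leaves the others at *Ddx58* and *Ifih1*.

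The cytosolic receptors *Ddx58* and *Ifih1* were higher in every KO than in every WT library, but by a wide margin only in KO NPC 3. *Ddx58*, which encodes the sensor of 5′-triphosphate RNA (chr4:40203773-40239828, minus strand, GRCm38), was at 13.4, 9.90 and 38.0 CPM in KO NPC 1, 2 and 3. It was at 8.95, 9.76 and 7.25 CPM in WT NPC 1, 2 and 3, so that the lowest KO library exceeded the highest WT library by little. *Ifih1*, the sensor of long double-stranded RNA (chr2:62595798-62646255, minus strand), was at 1.86, 1.72 and 5.75 CPM in the KO and at 1.38, 1.48 and 1.09 CPM in the WT NPCs. Its libraries fell in the same pattern as those of *Ddx58*, and the ratio of *Ddx58* to *Ifih1* CPM stayed between 5.77 and 7.23 in the 6 libraries. The log2 fold change, KO against WT, was 1.24 for *Ddx58* (95% interval -0.03 to 2.51) and 1.23 for *Ifih1* (-0.10 to 2.57), and the quasi-likelihood test of edgeR gave adjusted p = 0.983 for both. Without KO NPC 3 these differences shrank to 0.43 (-0.13 to 0.99) and 0.44 (-0.20 to 1.08), and with both libraries numbered 3 left out to 0.31 for each gene. Before adjustment p was 0.0537 for *Ddx58* and 0.0644 for *Ifih1* by the quasi-likelihood test, and 0.0254 and 0.0319 by DESeq2 (adjusted p = 0.9995 for both). The astrocyte and *Pdgfrb* signals given above were highest in the same library as *Ddx58* and *Ifih1*, and their part in this result was not tested.

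The promoters of this pair are shown because both genes were highest in the same library. That of *Mavs*, whose KO and WT libraries overlapped, stands beside them. Each stretch covers positions -200 to -11 before the RefSeq transcription start (GRCm38.p6), 5′ to 3′ on the gene's strand, and capitals mark a match on either strand to GAAANGAAA, GAAANNGAAA or GAAANNNGAAA, pairs of the GAAA half-site that interferon regulatory factors bind.
*Ddx58* (chr4:40239836-40240025, minus strand): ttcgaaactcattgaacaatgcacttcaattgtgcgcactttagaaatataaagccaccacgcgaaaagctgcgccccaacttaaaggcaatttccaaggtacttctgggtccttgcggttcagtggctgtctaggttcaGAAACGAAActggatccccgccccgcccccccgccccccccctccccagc
*Ifih1* (chr2:62646266-62646455, minus strand): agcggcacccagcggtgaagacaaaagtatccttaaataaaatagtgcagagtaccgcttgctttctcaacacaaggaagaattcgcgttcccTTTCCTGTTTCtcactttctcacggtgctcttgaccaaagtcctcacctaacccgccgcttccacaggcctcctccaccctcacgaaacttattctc
*Mavs* (chr2:131233863-131234052, plus strand): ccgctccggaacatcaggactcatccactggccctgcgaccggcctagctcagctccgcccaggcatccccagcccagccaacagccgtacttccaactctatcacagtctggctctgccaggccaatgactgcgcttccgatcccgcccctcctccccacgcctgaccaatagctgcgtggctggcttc
The match in *Ddx58* lay at positions -60 to -52 and had a spacer of 1 base, and that in *Ifih1* lay at positions -107 to -97 on the reverse strand with a spacer of 3 bases. Across the 250 bases before the start, spacers of 1, 2 and 3 bases occurred in 2.68%, 2.98% and 2.38% of 32851 RefSeq promoters. Any of them occurred in 7.45% of these promoters and, counted by gene, in 8.59% of 27025 genes. RefSeq windows were at hand for 8 of the 10 genes (not *Dhx58* or *Zbp1*), 11 windows in all, and *Ddx58* and *Ifih1* were the 2 genes with such a pair. The spacer of 2 bases, which is that of the classical interferon-stimulated response element, was found in 0 of them, and the other spacers were added after the sequences had been seen, so the matches are a description only. TTCNNNGAA, the palindrome bound by STAT dimers, was found in *Eif2ak2* alone, at positions -178 to -170. It occurred in 7.02% of all promoters and in 8.13% of genes. No match overlapped another.

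*Dhx58* encodes LGP2, the RIG-I-like receptor that lacks signalling domains. Its row, shared with *Kat2a* (chr11:100694884-100712465, minus strand), was at 130, 128 and 75.8 CPM in KO NPC 1, 2 and 3 and at 115, 111 and 146 CPM in WT NPC 1, 2 and 3. KO NPC 3 was the lowest library and WT NPC 3 the highest, and the groups overlapped. The log2 fold change of -0.16 (standard error 0.25) became 0.06 without KO NPC 3, and the row gives no separate value for *Dhx58*.

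*Tlr3*, the endosomal receptor (chr8:45395665-45411080, minus strand), varied as much within a genotype as between them. It was at 18.2, 12.2 and 5.70 CPM in the KO and at 20.5, 8.84 and 11.0 CPM in the WT NPCs. The highest library was 3.19 times the lowest among the KO NPCs and 2.32 times among the WT NPCs. The difference was -0.16 on the log2 scale (95% interval -1.38 to 1.06), and its sign turned without KO NPC 3 (0.17) or without WT NPC 1 (0.29). *Tlr3* was thus lowest in the library where *Ddx58* and *Ifih1* were highest, which was the lowest library for 36.8% of all genes.

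The adaptor *Mavs* and the kinase *Tbk1* differed little between the genotypes. *Mavs* (chr2:131234063-131248025, plus strand) was at 36.6, 37.1 and 29.9 CPM in the KO and at 43.3, 36.0 and 33.1 CPM in the WT NPCs. The difference on the log2 scale was -0.12 (95% interval -0.55 to 0.32), -0.02 without KO NPC 3 and 0.0084 without WT NPC 1. *Tbk1*, the kinase that phosphorylates IRF3, was at 23.5, 25.4 and 21.9 CPM in the KO and at 23.7, 25.9 and 23.4 CPM in the WT NPCs. It was the least variable of the 10 genes within both genotypes, with the highest KO library 1.16 times and the highest WT library 1.11 times the lowest. Its log2 fold change of -0.05 had the narrowest interval (95% interval -0.42 to 0.33), and without KO NPC 3 it was 0.0050. The *Tbk1* locus of the table (chr10:121357995-121587003) runs beyond the gene of the annotation and covers *Rassf3*, which has a row of its own. *Tbkbp1*, which encodes an adaptor that binds TBK1 (chr11:97136171-97151495, minus strand), was at 38.6, 45.2 and 59.1 CPM in the KO and at 37.1, 40.9 and 26.4 CPM in the WT NPCs. KO NPC 3 was the highest library and WT NPC 3 the lowest, while the others overlapped. Its log2 fold change was 0.45 (95% interval -0.14 to 1.04), 0.27 without KO NPC 3 and 0.10 with both libraries numbered 3 left out.

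**Figure D2:**
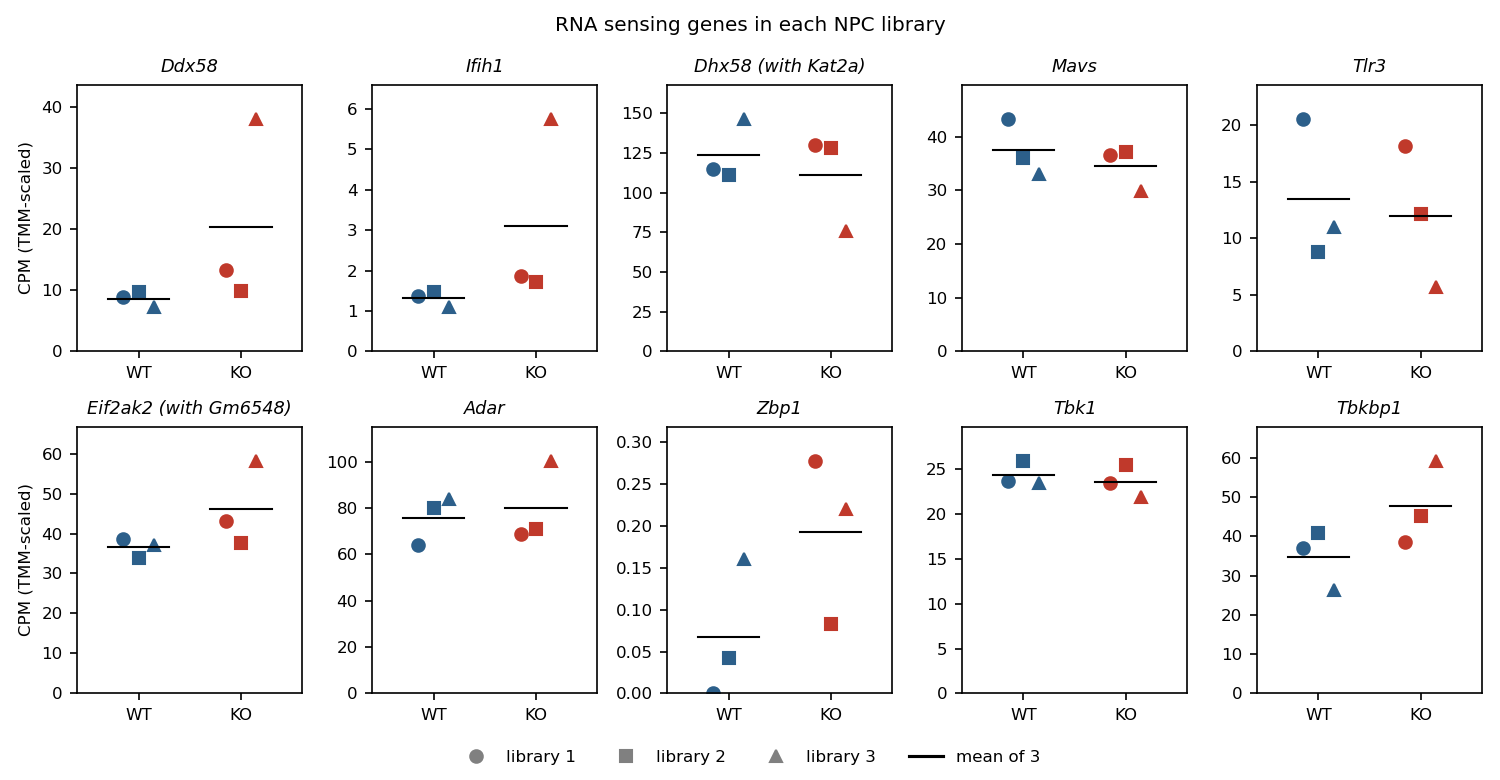
CPM of the 10 RNA sensing genes in each WT (blue) and KO (red) NPC library, 1 panel per gene with its own axis from 0, where shapes give the library number and the line the mean of 3. *Ddx58* at 38.0 CPM and *Ifih1* at 5.75 CPM in KO NPC 3 lie far above their other libraries, whereas *Tbk1* stays between 21.9 and 25.9 CPM.

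Among the effectors, *Eif2ak2*, *Adar* and *Zbp1* each had KO and WT libraries that overlapped. *Eif2ak2* encodes PKR, which phosphorylates eIF2α and so halts translation, and its row also holds the pseudogene *Gm6548* (chr17:78850792-78882573, minus strand). It was at 43.1, 37.5 and 58.1 CPM in the KO and at 38.6, 33.9 and 37.2 CPM in the WT NPCs. KO NPC 3 was the highest, and KO NPC 2 lay within the WT range. KO and WT differed by a log2 fold change of 0.34 (95% interval -0.15 to 0.83), and by 0.14 without KO NPC 3. *Adar*, the adenosine deaminase (chr3:89715022-89753446, plus strand, overlapped by *Chrnb2* on the other strand), was at 69.0, 70.8 and 100.2 CPM in the KO and at 63.9, 79.9 and 83.8 CPM in the WT NPCs. Only KO NPC 3 exceeded the WT libraries. KO and WT differed by 0.08 on the log2 scale (95% interval -0.43 to 0.59), -0.12 with KO NPC 3 left out and -0.20 under the *Rn7sk* scaling described below. *Zbp1*, a sensor of Z-form nucleic acid (chr2:173206612-173218923, minus strand), was near the limit of detection, with 23, 6 and 13 counts in the KO and 0, 3 and 11 counts in the WT NPCs. A count of 0 in WT NPC 1 allows up to 0.0475 CPM, taking 3 counts as the limit. The log2 fold change of 1.49 (1.39 without KO NPC 3) rested on these few counts. Its 95% interval of -1.19 to 4.16 covers 0.

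Within pairs of libraries that share a number, several genes differed most in pair 3. For *Ddx58* the log2 CPM of KO minus that of WT was 0.58, 0.02 and 2.39 in pairs 1, 2 and 3. For *Ifih1* it was 0.42, 0.21 and 2.36, and for *Tbkbp1* 0.06, 0.15 and 1.16. *Eif2ak2* gave a smaller version of the same order, with 0.16, 0.15 and 0.64. *Tlr3* gave -0.18, 0.46 and -0.94, and the *Dhx58* and *Kat2a* row 0.18, 0.21 and -0.95, so their pair 3 went the other way. *Mavs*, *Tbk1* and *Adar* stayed between -0.24 and 0.26 in all pairs, and *Zbp1*, from few counts, gave 3.41, 0.65 and 0.40.

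Of the 10 genes, 0 were called at an adjusted p under 0.05 in the quasi-likelihood test of edgeR, where 0% of all 19073 genes were. At an unadjusted p under 0.05, 0 of 10 passed by this test, against 1.61% of all genes (0.949% higher and 0.666% lower in the KO NPCs). Without KO NPC 3 the same test again gave 0 of 10 higher at an unadjusted p under 0.05, against 1.07% of all genes. At an adjusted p under 0.05, 0 of 10 were called by edgeR's likelihood ratio test (0.0891% of all genes) and by DESeq2 (0.184%). At that threshold the likelihood ratio test also called 0 of 10 on paired replicates (0.199%) or on pairs with *Rn7sk* scaling (0.115%). Without KO NPC 3 it again called 0 of 10 (0.346%). In 2 of the 10 genes every KO library lay above every WT library, as in 2.74% of all genes, and in 0 of 10 every KO library lay below, as in 3.28%. The log2 fold change was above 0 for 6 of the 10 genes, as for 48.4% of all genes, and its median was 0.21 beside -0.01 over all genes. Without KO NPC 3 this median was 0.16, and with both libraries numbered 3 left out 0.10, beside -0.01 each over all genes. KO NPC 3 was the highest library for 5 of the genes (34.9% of all genes) and the lowest for 4 (36.8%), so that it was at one end of the range for 9 of 10, as for 71.7% of all genes. Scaling by the count of *Rn7sk*, an RNA made by Pol III, shifted the median of all genes to -0.26. That of the 10 genes went to -0.06. *Rn7sk* also served the study as an internal control, but there the scale was the ratio of its log2 CPM to the average over samples. *Rn7sk* itself varied within a genotype. Summed with the far lower *Armc5*, it was at 11675, 15620 and 13913 CPM in KO NPC 1, 2 and 3. The same sum was 12927, 16142 and 8089 CPM in WT NPC 1, 2 and 3.

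**Figure D3:**
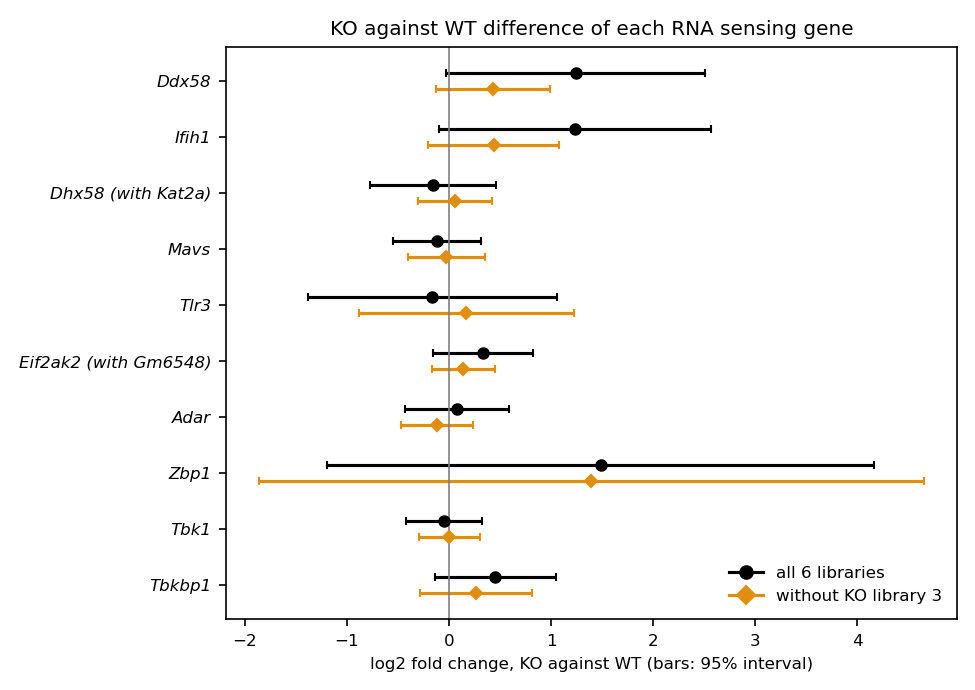
Log2 fold change, KO against WT, of each RNA sensing gene with its 95% interval from edgeR's quasi-likelihood fit, with all 6 libraries (black circles) and without KO NPC 3 (orange diamonds). Every interval covers 0, and the values of *Ddx58* and *Ifih1* fall from 1.24 and 1.23 to 0.43 and 0.44.

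The rest of the pathway was described by 7 lists with 87 genes in the table, of which 75 were tested. In the quasi-likelihood test of edgeR 0 of the 75 were called after adjustment, and 13 had an unadjusted p under 0.05, beside 1.61% of all genes. The 14 partners and regulators of RIG-I-like receptors had a median log2 fold change of -0.11 (0.12 without KO NPC 3). *Ddx3x* and *Pcbp2*, the most abundant of them, had log2 fold changes of -0.21 and -0.07. At an unadjusted p under 0.05, 2 of the 14 were higher in the KO NPCs (0.949% of all genes), *Trim25* and *Ddx60*, which are named for their values. *Trim25*, the ubiquitin ligase that acts on RIG-I, was at 14.2, 22.1 and 19.4 CPM in the KO and at 9.39, 14.8 and 8.61 CPM in the WT NPCs, with 1 WT library above the lowest KO library, and its log2 fold change was 0.76 with and 0.73 without KO NPC 3. *Ddx60*, a helicase linked to RIG-I, had 69, 50 and 971 counts in the KO and 9, 33 and 17 counts in the WT NPCs, and its log2 fold change fell from 4.39 to 1.41 without KO NPC 3.

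The 13 genes of the TBK1 complex and its adaptors had a median of -0.04 and 0 at an unadjusted p under 0.05. Their most abundant rows were merged ones, *Ikbke* with *Srgap2* and *Ikbkb* with *Ap3m2*, at -0.16 and -0.09. Among the partners of endosomal Toll-like receptors, 8 of 11 were tested, with a median of -0.24 (-0.16 without KO NPC 3), and 7 of the 8 lay below 0. *Hsp90b1*, a chaperone of these receptors, was at -0.22 and *Irak1*, a kinase downstream of several of them, at -0.15. *Unc93b1*, which carries the receptors to endosomes, was the 1 gene of this list at an unadjusted p under 0.05. It was at 0.759, 0.673 and 0.186 CPM in the KO and at 1.52, 1.66 and 1.11 CPM in the WT NPCs, lower in every KO library (log2 fold change -1.40, and -0.998 without KO NPC 3). Of the other RNA-binding receptors of this kind, *Tlr7* had 8 to 70 counts in a library, and *Tlr8* and *Tlr13* at most 9. The 13 partners of PKR, ADAR and ZBP1 had a median of -0.14 (-0.03 without KO NPC 3) and 0 at an unadjusted p under 0.05. *Eif2s1*, the PKR substrate eIF2α, was at -0.10, and *Dnajc3*, a PKR inhibitor, at -0.25, with every KO library below every WT library.

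Downstream of the sensors, several interferon-stimulated genes had more CPM in every KO than in every WT library, though the quasi-likelihood test called 0 of them after adjustment. Of 19 interferon-stimulated genes 17 were tested, and their median log2 fold change was 0.97, 0.60 without KO NPC 3 and 0.47 with both libraries numbered 3 left out. At an unadjusted p under 0.05, 8 of the 17 were higher in the KO NPCs and 0 lower, beside the 0.949% and 0.666% of all genes. In the same 8 genes every KO library lay above every WT library, as in 2.74% of all genes. The list was chosen with earlier results of these data known, so these counts are a description only. In the likelihood ratio test of edgeR *Usp18* and *Ifi44* were called at an adjusted p under 0.05, and DESeq2 called *Ifit1* as well. On paired replicates the likelihood ratio test called the same 3, and *Oasl2* joined them when *Rn7sk* scaling was added. *Ifit1* was no longer called without KO NPC 3 (log2 fold change 5.26 with and 2.89 without it, adjusted p = 0.404 by the likelihood ratio test and 0.859 by DESeq2), whereas *Oasl2* was called by both (4.13 and 2.25, adjusted p = 0.000129 and 1.6e-06). *Ifi44* had 226, 156 and 561 counts in the KO and 14, 7 and 18 counts in the WT NPCs, and its log2 fold change of 4.62 (standard error 0.80) was 3.64 without KO NPC 3. *Usp18*, a protease that removes ISG15 and dampens interferon signalling, had 218, 192 and 1032 counts in the KO and 9, 32 and 41 counts in the WT NPCs (log2 fold change 4.25, and 2.73 without KO NPC 3). Both genes were thus clearly higher in KO NPC 1 and 2, where *Ddx58* and *Ifih1* exceeded the WT libraries by little. Among the genes of this list that no test called, *Stat2* was at 0.08, the row of *Irf9* and *Rnf31* at 0.37, and that of *Ifitm3* and *Hras*, the second most abundant, at -0.33. These genes were chosen from the list by abundance, by likeness to the 10 genes or by the calls just given.

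Among the transcription factors and interferons downstream, 5 of 11 genes were tested, with a median of -0.02. *Rela* and *Nfkb1*, subunits of NF-κB and the most abundant, were both at -0.02. *Irf3*, the target of TBK1, was at -0.25 (standard error 0.21). *Irf7*, the interferon-inducible counterpart of *Irf3*, had 65, 58 and 225 counts in the KO and 11, 17 and 12 counts in the WT NPCs. It differed by a log2 fold change of 3.18 with and 2.00 without KO NPC 3, and it passed by DESeq2 (adjusted p = 0.0312) but not by the likelihood ratio test (adjusted p = 0.121), and without KO NPC 3 it passed by both (adjusted p = 0.0126 by DESeq2 and 0.00883 by the likelihood ratio test). *Cxcl10*, a chemokine gene induced by IRF3 and interferon, had 122, 57 and 62 counts in the KO and 14, 11 and 27 counts in the WT NPCs, and its log2 fold change was 2.10 with and 2.13 without KO NPC 3. Its adjusted p was 0.0636 by DESeq2 and 0.289 by the likelihood ratio test. *Ifnb1* had 4, 3 and 2 counts in the KO and 0, 0 and 1 in the WT NPCs, too few to pass the filter. *Ifna2*, *Ifna4*, *Ifnl2* and *Ifnl3* had at most 8 counts in any library, and the row of *Ccl5* had 0 in all.

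**Figure D4:**
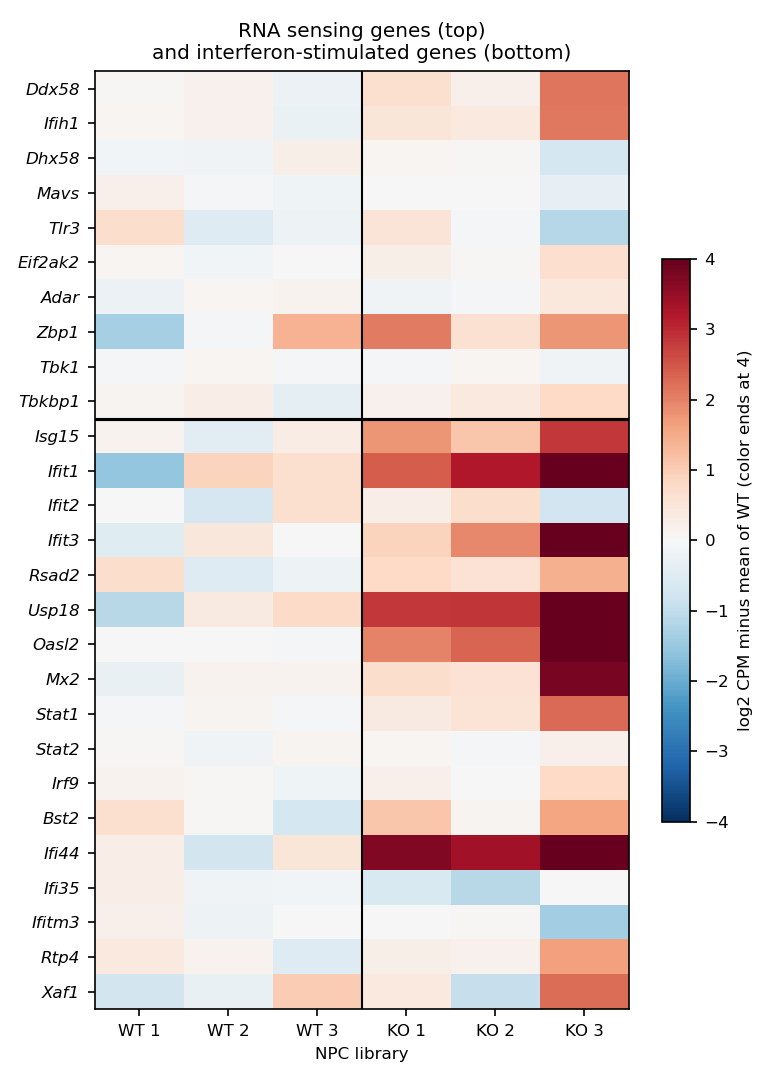
Log2 CPM minus the mean of the WT libraries (color, ending at 4 in both directions) for the 10 RNA sensing genes above the black line and 17 interferon-stimulated genes below it, in 3 WT and 3 KO NPC libraries. *Ifi44* and *Usp18* are raised in all 3 KO libraries, whereas *Ddx58* and *Ifih1* are raised mainly in KO 3 and *Tbk1* and *Mavs* stay near 0.

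**Figure D5:**
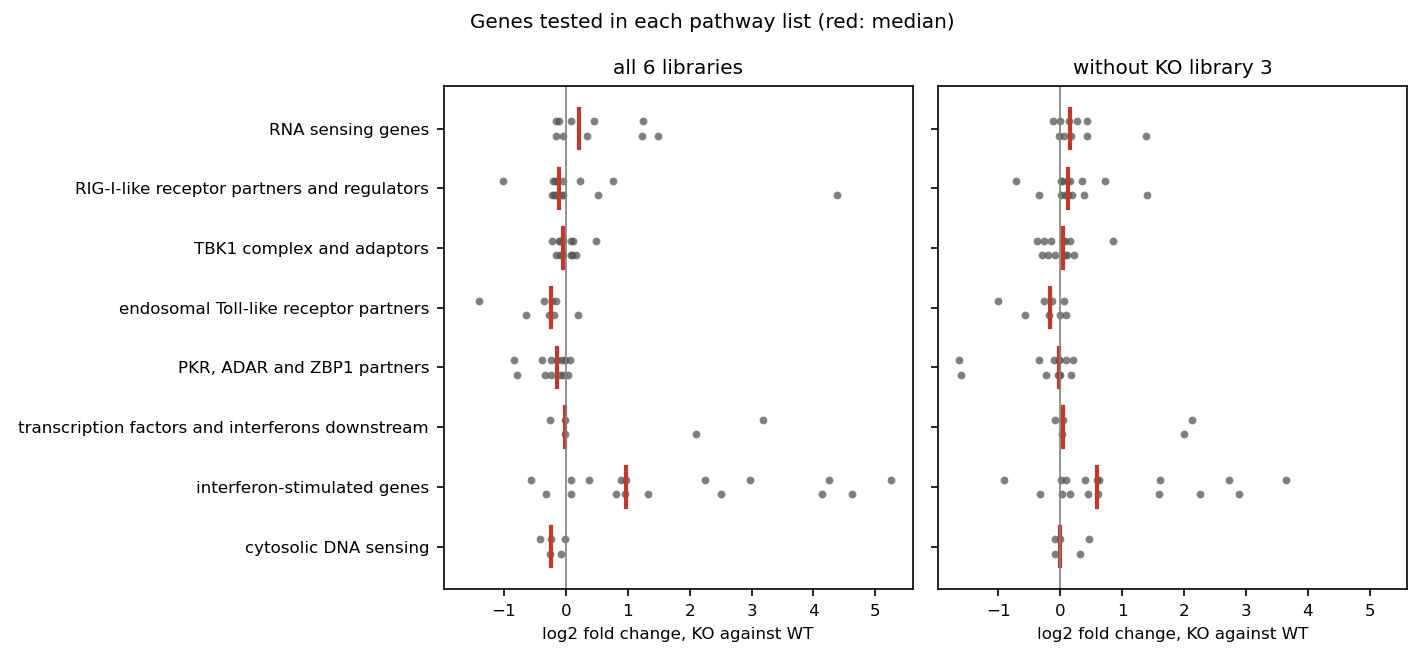
Log2 fold change, KO against WT, of each tested gene (grey points) in the 10 RNA sensing genes and the 7 pathway lists, with the list's median in red, for all 6 libraries (left) and without KO NPC 3 (right). The interferon-stimulated genes have medians of 0.97 and 0.60, and the other lists have medians between -0.24 and 0.21 with all libraries.

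The genes of the pathway lists whose log2 CPM followed the mean of the 10 RNA sensing genes most closely, each centred on its own mean over the 6 libraries, were *Stat2*, *Chuk* and the row of *Irf9* and *Rnf31*. Their root mean square distances from that mean were 0.17, 0.17 and 0.18 on the log2 scale, out of 75 genes compared. The mean of the 10 genes ranged only from -0.23 in WT NPC 1 to 0.37 in KO NPC 3. *Chuk*, a kinase subunit of the NF-κB pathway, ranged only from 63.0 to 71.5 CPM. The row of *Irf9* and *Rnf31* ran from 35.5 CPM in WT NPC 3 to 69.2 CPM in KO NPC 3. Relative to the WT mean, *Ddx58* and *Ifih1* were at 2.14 and 2.11 in KO NPC 3. The *Dhx58* row and *Tlr3* were at -0.70 and -1.14 there, so opposite differences were averaged in the mean of the 10 genes. *Zbp1*, near the limit of detection, entered that mean with the same weight as the other genes. Its log2 CPM minus the WT mean ran from -1.34 in WT NPC 1, where it had 0 counts, to 2.07 in KO NPC 1.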

How the data were processed

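RNA-seq was made from rRNA-depleted, strand-specific libraries sequenced as pairs of reads. The authors' processing notes name, for GRCm38, the tools STAR, StringTie, Trimmomatic, Picard and edgeR, and versions are not given in the sources used here. The deposited table holds the authors' raw counts per locus of an assembly merged with a reference annotation. Whether counting used the strand is not given. Its log2 values, which the authors derived from these counts as CPM or relative to *Rn7sk*, with group means, were only checked against the counts.

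Counts of the 53103 loci that name a gene, 52995791 to 85170379 per library, were summed per reference gene. The 6596 loci without a name (1.31% to 4.89% of counts) were left out. After edgeR's filterByExpr (minimum count 10, minimum total 15) and TMM scaling, 19073 genes were tested, KO against WT, by edgeR's quasi-likelihood test with Benjamini-Hochberg adjustment over all genes and a threshold of 0.05. Intervals use the standard error and degrees of freedom of that fit, and log CPM a prior count of 2. Alternatives were *Rn7sk* or total count scaling, no filter, the likelihood ratio test, DESeq2, a replicate block, and leaving out libraries. Without KO NPC 3 combined with the likelihood ratio test or DESeq2, and both libraries numbered 3 left out with the likelihood ratio test, were added after seeing the data. The fits were tested on simulated counts.

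The labels number the replicates and the study's methods call them pairs. Deviations from the group means correlated at 0.41, 0.17 and 0.19 within same-numbered libraries and at most 0.06 otherwise, so the numbers were taken to pair the libraries. The main fit did not use these pairs, and only the fits with a replicate block did. P values weigh the difference between genotypes against the spread between these cultures, which in the main fit includes the spread between pairs.

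The 10 genes and all lists were chosen with earlier results of these data known. Genes were named as members, as the 2 most abundant of each pathway list and the most abundant of each marker list, as the 3 nearest in profile, or as sharing a row. Others were named after their values were seen. Coordinates matched GENCODE M21, and promoters are RefSeq's (GRCm38.p6). Fits ran in R 4.3.3 with edgeR 4.0.16 (limma 3.58.1) and with DESeq2 1.42.0.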

Additional observations from a re-analysis of the deposited data

How the results depend on the processing

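Under 15 settings, 135 of 149 values of single RNA sensing genes kept their direction and stayed uncalled, 14 turned sign and 0 were called. Without KO NPC 3 the log2 fold change turned for the *Dhx58* row (0.058), *Tlr3* (0.17), *Adar* (-0.12) and *Tbk1* (0.0050). Without WT NPC 1 it turned for *Mavs* (0.0084), *Tlr3* (0.29) and *Adar* (-0.023), and without WT NPC 2 for *Tbk1* (0.030). With both libraries numbered 3 left out it turned for the *Dhx58* row (0.19), *Tlr3* (0.040) and *Adar* (-0.048). Over the libraries left out in turn, the ranges were -0.28 to 0.058 for the *Dhx58* row, -0.20 to 0.0084 for *Mavs*, -0.59 to 0.29 for *Tlr3*, -0.12 to 0.18 for *Adar* and -0.077 to 0.030 for *Tbk1*. *Rn7sk* scaling turned *Adar* (-0.20, and -0.13 with the replicate block and the likelihood ratio test), and total counts turned *Tbk1* (0.012). The cause was not tested. Among pathway genes, 0 passed by the quasi-likelihood test, 2 by the likelihood ratio test, 4 by DESeq2, 3 with the replicate block and the likelihood ratio test and 4 with *Rn7sk* scaling added. Without KO NPC 3, 4 passed by either test, as did 4 with both libraries numbered 3 left out. The replicate block changed no call of the 10 genes, with *Ddx58* at 0.98 (adjusted p = 0.968, quasi-likelihood test). *Armc5* kept its direction and passed with *Rn7sk* scaling (-4.94), without a filter (-4.70), by DESeq2 (-4.67), by the likelihood ratio test (-4.68), with the block added (-4.75) and with *Rn7sk* scaling as well (-4.94). *Zbp1*, the gene with the fewest counts, missed the filter with both libraries numbered 3 left out.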

Other observations

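Cytosolic DNA sensing, which signals through STING to the same kinase TBK1, was described by 6 genes, of which 5 were tested, all with a log2 fold change below 0 (median -0.23, and -0.01 without KO NPC 3), and 0 passed an unadjusted p under 0.05. *Tmem173*, which encodes STING, had 610, 382 and 661 counts in WT NPC 1, 2 and 3, and 1021, 600 and 25 counts in their KO counterparts. *Mb21d1*, which encodes the DNA sensor cGAS, had 436, 231 and 39 counts in the KO and 176, 278 and 169 in the WT NPCs. Both were lowest in KO NPC 3, where *Ddx58* and *Ifih1* were highest. KO NPC 3 was the lowest library for 36.8% of all genes and the highest for 34.9%. The most abundant, *Ddx41* and *Samhd1*, had log2 fold changes of -0.26 and -0.42, and -0.08 for each without KO NPC 3.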
